A study of Mus musculus with 7 samples.

Results

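Immediate early genes are switched on within minutes of a stimulus by transcription factors that already sit in the cell. Described here are 38 mouse genes of this kind, out of 49315 genes counted, in whole pancreatic islets. The 38 genes were taken from a list of symbols of the AP-1, EGR, NR4A and KLF transcription factors and of early feedback genes. All 38 were found among the counted genes and all 38 passed the filter on low counts. The knockout islets came from 7-day-old βNrf2KO mice, in which Nrf2 is deleted in β-cells, and the control islets from Nrf2lox/lox mice of the same age, which carry the loxP-flanked Nrf2 gene and no deletion. There were 4 βNrf2KO pools (numbers 1, 2, 3 and 4) and 3 control pools (numbers 1, 2 and 4), each made from RNA of 5 animals. The sources used here give neither the promoter that drives Cre nor the sex of the animals. Nrf2 is a transcription factor that turns on antioxidant genes, and the question of the study is what its loss does to β-cell proliferation after birth.

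Growth factors, calcium entry and cyclic AMP reach these genes through the ERK kinases and through CREB and SRF, factors bound at their promoters before the stimulus. Their mRNAs are made in bursts and decay fast, and several of the proteins shut the signal off again: DUSP phosphatases inactivate the kinases and ZFP36 proteins destroy mRNAs. In β-cells they respond to glucose and depolarization. They also respond to the isolation of tissue, so in isolated islets the animal and the preparation cannot be told apart in their level. Counts of whole islets do not tell fewer cells of a type from less RNA per cell, nor β-cells from the other cells of the islet.

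Total counts ran from 18187382 to 20847474 in βNrf2KO pools and from 21603654 to 25373105 in control pools. These did not overlap (exact two-sided permutation p = 0.0571, the smallest possible with 35 splits). The mitochondrial genome took 10.02% to 27.7% of counts in βNrf2KO pools and 14.6% to 51.8% in control pools, which overlapped (exact two-sided permutation p = 0.229). Nfe2l2, the gene of Nrf2, had a log2 fold change of 0.081 ± 0.23 (SE, edgeR, adjusted p = 0.911), while Cre had 23 to 73 counts in βNrf2KO pools and 0 in each control pool. Counts over the whole gene do not check the deletion in β-cells. The 10 β-cell markers summed to between 33707 and 46106 CPM in βNrf2KO pools and between 16909 and 47781 CPM in control pools. Most of these CPM came from Ins2, Ins1 and Iapp, so the sums say little of the other markers. Ins2 had a log2 fold change of 0.75 ± 0.36 and Ins1 of -0.66 ± 0.31 (edgeR, adjusted p = 0.571 each). A pool of each group stood apart for the immediate early genes. βNrf2KO pool 1 had the lowest value of the 7 pools for 20 of 38 genes (52.6%), against 15.9% of all tested genes. Control pool 4 had the highest for 17 (44.7%), against 12.8%. The main counts are therefore given with and without each of them.

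Promoters were read first, as a feature that played no part in the choice of genes. RefSeq windows (GRCm38.p6) of 250 bases before the start and 50 after it were matched for 31 of the 38 genes. Fosl1, Egr1, Egr3, Klf10, Ier2, Arc and Sik1 had no window. Shown are Fos and Dusp1, which were lowest in the same pool and highest in the same pool, Maff and Gadd45b, whose groups did not overlap, and Fosb and Npas4, which had the lowest and the highest fold change. Each runs 5′ to 3′ on the strand of the gene, up to the RefSeq start or, where it comes first, the first counted base. Capitals mark the motifs found by letter search on both strands: the CRE core TGACG and the full CRE TGACGTCA, which CREB binds, the EGR site GCGGGGGCG and the TATA box TATAAA.
Fos (chr12:85473640-85473889, plus strand): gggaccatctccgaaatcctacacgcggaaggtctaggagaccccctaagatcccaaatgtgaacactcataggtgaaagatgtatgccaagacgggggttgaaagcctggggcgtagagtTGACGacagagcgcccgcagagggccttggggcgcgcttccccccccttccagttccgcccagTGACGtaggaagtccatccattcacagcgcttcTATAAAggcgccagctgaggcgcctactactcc
Fosb (chr7:19310052-19310295, minus strand): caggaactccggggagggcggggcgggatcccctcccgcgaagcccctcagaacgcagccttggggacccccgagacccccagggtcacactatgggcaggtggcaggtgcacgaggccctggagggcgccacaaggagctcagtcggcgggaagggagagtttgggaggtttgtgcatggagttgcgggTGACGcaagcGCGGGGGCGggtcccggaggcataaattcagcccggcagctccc
Maff (chr15:79347270-79347519, plus strand): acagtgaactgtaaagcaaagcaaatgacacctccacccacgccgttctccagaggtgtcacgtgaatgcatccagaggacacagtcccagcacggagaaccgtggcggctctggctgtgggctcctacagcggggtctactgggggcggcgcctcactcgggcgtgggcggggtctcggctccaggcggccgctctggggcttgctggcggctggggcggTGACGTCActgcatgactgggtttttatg
Gadd45b (chr10:80929841-80930090, plus strand): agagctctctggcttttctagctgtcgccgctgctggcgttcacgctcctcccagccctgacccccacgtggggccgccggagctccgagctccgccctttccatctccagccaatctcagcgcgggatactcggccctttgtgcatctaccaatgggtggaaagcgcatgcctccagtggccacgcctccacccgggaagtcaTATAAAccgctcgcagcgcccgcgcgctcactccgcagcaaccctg
Dusp1 (chr17:26508520-26508722, minus strand): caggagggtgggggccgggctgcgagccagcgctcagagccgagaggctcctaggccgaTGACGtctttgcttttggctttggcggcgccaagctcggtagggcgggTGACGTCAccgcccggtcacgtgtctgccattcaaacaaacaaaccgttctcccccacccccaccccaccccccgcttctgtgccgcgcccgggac
Npas4 (chr19:4989972-4990221, minus strand): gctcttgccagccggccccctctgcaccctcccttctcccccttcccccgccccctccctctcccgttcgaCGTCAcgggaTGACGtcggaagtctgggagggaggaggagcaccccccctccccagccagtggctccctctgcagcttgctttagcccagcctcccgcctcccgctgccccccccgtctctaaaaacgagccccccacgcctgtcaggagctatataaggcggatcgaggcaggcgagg

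The Fos promoter held a CRE core 129 to 125 and another 66 to 62 bases before the start and a TATA box 33 to 28 bases before it. Maff held a full CRE 29 to 22 bases before the start and Dusp1 one 143 to 136 bases before it. Npas4 held a pair of CRE cores on opposite strands. Gadd45b held a TATA box and no other motif of the search.

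Among the 31 genes with a window, 18 (58.1%) held the CRE core, against 32.7% of the 12651 tested genes and 23% of all 27025 genes with a window. A full CRE contains the core on both strands, so these counts overlap. The full CRE was found in Dusp1, Btg2 and Maff, which is 9.68% of the genes, against 3.29% of tested genes. The EGR site was found in 8 genes (25.8%), against 6.06% of tested genes, and among them were Fosb, Nr4a1, Klf2 and Zfp36. A TATA box was found in 7 (22.6%), against 9.66%. The CArG box, to which SRF binds, was found in Egr2, Dusp5 and Zfp36 (9.68%), against 1.57%. The AP-1 site TGAGTCA was found in 0 of 31, against 4.87% of tested genes. A match of letters is a description and not a binding site, and sites farther upstream were not searched.

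**Figure D1:**
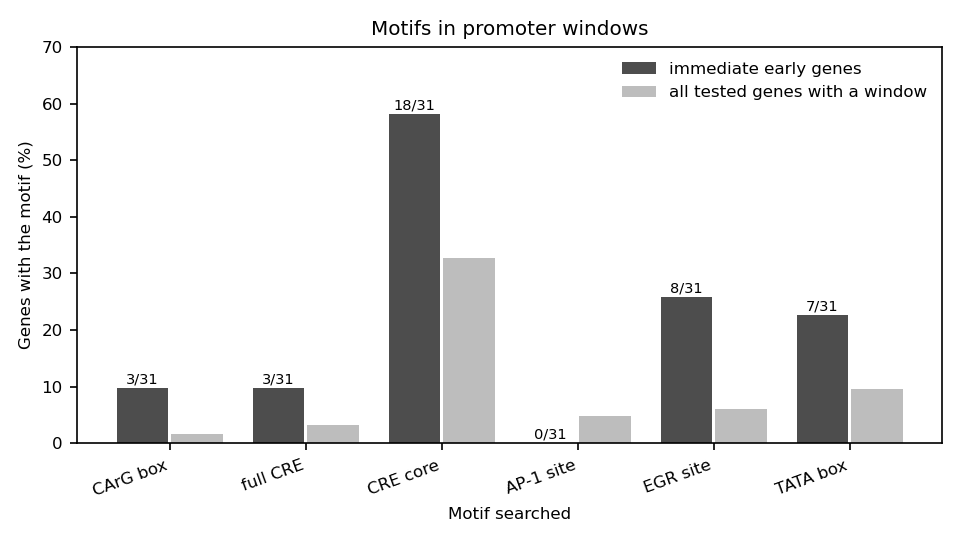
Share of genes (percent) whose RefSeq promoter window holds each motif, for the 31 immediate early genes with a window (dark bars, with counts) and the 12651 tested genes with one (light bars). The CRE core is the most frequent motif in the immediate early genes, in 18 of 31.

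The 38 genes are compact. Their median span in the genome was 4246.5 bases, against 16184 for all tested genes, while the median exon length was 2843.5 bases, against 3380. Their 3′ UTRs had about the same median length as those of other tested coding genes, 1195 and 1174 bases. The AU-rich nonamer TTATTTATT, through which ZFP36 proteins mark mRNAs for decay, was found in the longest annotated 3′ UTR of 6 of 38 genes (15.8%), against 7.96% of 14741 tested coding genes. The first of these in the 3′ UTR is shown for Fos and Maff (GRCm38, nonamer in capitals).
Fos (chr12:85477103-85477131, plus strand): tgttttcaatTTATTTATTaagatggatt
Maff (chr15:79358778-79358806, plus strand): ttccacactcTTATTTATTgcacgaatct

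Immediate early transcripts were abundant in these islets. Levels of different genes are compared as CPM per kilobase of exon. On this scale 28 of the 38 were among the 1000 highest of 19893 tested genes and 7 were among the 100 highest. Fos (ENSMUSG00000021250, chromosome 12, 85473890 to 85477273, plus strand, GRCm38), the founding partner of the AP-1 dimer, ranked 30 of all tested genes. It had 157, 574, 535 and 621 CPM per kilobase in βNrf2KO pools 1, 2, 3 and 4 and 221, 609 and 958 in control pools 1, 2 and 4. Values of single pools are given in that order of pool numbers throughout. The lowest and the highest Fos value thus stood in βNrf2KO pool 1 and control pool 4.

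Egr1 (ENSMUSG00000038418, chromosome 18, 34859823 to 34864984, plus strand), a zinc finger factor and early reporter of ERK activity, ranked 31. It had 124, 578, 513 and 571 CPM per kilobase in βNrf2KO pools and 217, 584 and 729 in control pools. Fosb (ENSMUSG00000003545, chromosome 7, 19302696 to 19310051, minus strand), the FOS paralogue that accumulates with repeated stimulation, had 209, 407, 232 and 265 CPM per kilobase in βNrf2KO pools and 224, 871 and 509 in control pools. All βNrf2KO values of Fosb but that of pool 2 lay between 209 and 265, near that of control pool 1.

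Jun, the other founding partner of AP-1, averaged 175 CPM per kilobase in βNrf2KO pools and 191 in control pools. The orphan nuclear receptor Nr4a1 averaged 148 in βNrf2KO pools and 177 in control pools. Next in order stood Zfp36, Junb, Jund, Rhob, Ier2, Dusp1 and Btg2, with means over the 7 pools of 140, 125, 118, 110.5, 94.1, 85.7 and 85.6 CPM per kilobase. Neighbours in this order differed by less than the range of each gene over the pools. At the lower end were Egr2 with 4.71 and Dusp2 with 1.02 CPM per kilobase. Dusp2, a phosphatase of activated lymphocytes, was also the gene with the fewest reads, 28 in the pool where it was lowest.

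**Figure D2:**
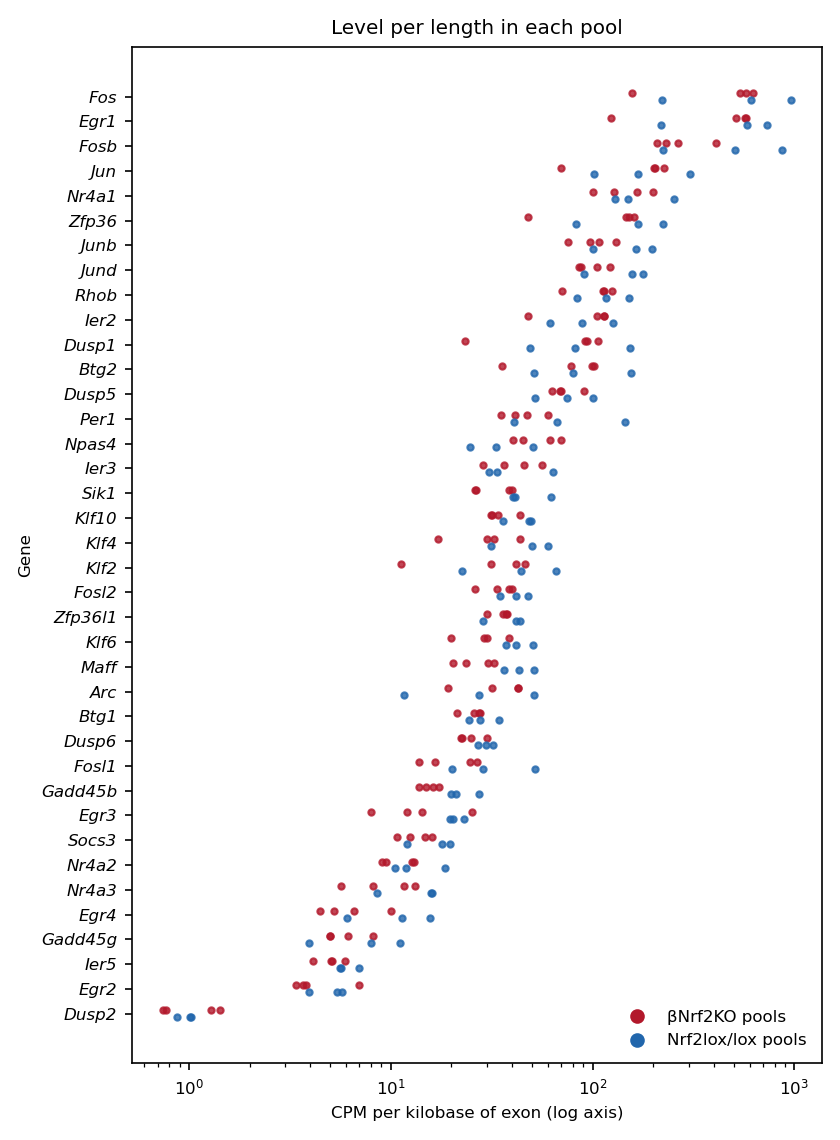
Level of each of the 38 genes in CPM per kilobase of exon (log axis) in each of 4 βNrf2KO pools (red) and 3 Nrf2lox/lox pools (blue), ordered by the mean over pools. Fos, Egr1 and Fosb lead, and the pools of both groups overlap for most genes.

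The immediate early genes varied more between pools of 1 group than other genes of similar level. The SD of log2 CPM within the βNrf2KO pools had a median of 0.41 over the 38 genes, and it was above the median of tested genes in the same quartile of level for 35 of 38. Within the control pools the median SD was 0.51, above that of the quartile for 27 of 38. For genes of the top quartile of level, which held 31 of the 38, the median SD over all tested genes was 0.17 in βNrf2KO and 0.29 in control pools. Egr1 (SD 1.08), Dusp1 (1.03) and Fos (0.94) were the most variable in βNrf2KO pools, and Fos (1.08), Arc (1.07) and Fosb (0.99) in control pools. The βNrf2KO spread of Egr1, Dusp1 and Fos rested on pool 1: over pools 2, 3 and 4 their SDs were 0.095, 0.11 and 0.11, against a median of 0.12 for tested genes of the top quartile. The median over the 38 genes was then 0.24, and 27 of 38 were above the median of their quartile.

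Between βNrf2KO and control pools, 0 of 38 immediate early genes passed an adjusted p of 0.05 in the quasi-likelihood test of edgeR (Benjamini-Hochberg), and 0 of 19893 genes did (0%). The smallest adjusted p of a member was 0.571. Over all genes 1683 had an unadjusted p under 0.05, DESeq2 called 1 gene, limma-voom called 0, and edgeR with the pool number as a block called 14. None of these calls was an immediate early gene, for which the smallest adjusted p was 0.549 by DESeq2, 0.715 by limma-voom and 0.212 with the block. The block gave 14 lower and 0 higher members at unadjusted p under 0.05. Calls rose over all genes as well: 2415 of 19893 passed that limit with the block, 1217 of them lower, against 1683 without it. Klf4 (unadjusted p = 0.00311 in edgeR with the block), Nr4a3 (0.0158), Klf2 (0.0223) and Zfp36 (0.0243) joined, and Npas4 (0.0605) no longer passed.

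Most of the 38 log2 fold changes lay below 0, with no member past the threshold. The sign was negative, that is lower in βNrf2KO, for 34 genes and positive for 4 (10.5%), whereas 49.4% of all tested genes were positive. The median log2 fold change was -0.29, against -0.0063 for all tested genes, and single genes ranged from -0.94 to 0.59. At unadjusted p under 0.05 stood 10 lower members (26.3%), against 5.23% of all tested genes, and 1 higher member (2.63%), against 3.23%. Without βNrf2KO pool 1 the median was -0.22, with 7 genes positive and 7 at unadjusted p under 0.05, against 9.04% of all genes tested. Leaving out control pool 4 gave a median of -0.26, 13 positive genes and 1 called gene. The 6 members at unadjusted p under 0.05 then stood beside 17% of all genes. Leaving out control pool 1 gave a median of -0.45. Fewer genes passed that limit in all without βNrf2KO pool 3 (4 members, 3.96% of all genes), βNrf2KO pool 4 (3 members, 4.22%) and control pool 2 (3 members, 2.3%), against 8.46% of all genes with every pool. When each pool was left out in turn, 7 to 20 of the 38 fold changes moved by over 1.5 times or turned sign.

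The pools did not overlap for 3 members, each lower in every βNrf2KO pool (7.89%), against 3.8% of all tested genes. In the other direction they were separate for 0 members, against 3.19%. With fewer pools more genes of every kind are separate. Separate members that were lower in βNrf2KO numbered 14 without control pool 1 (11.5% of all tested genes) and 8 without βNrf2KO pool 2 (7.12%). They numbered 7 without control pool 4 (12.7%) and 4 without βNrf2KO pool 1 (6.61%). Without control pool 1, 1 member was higher in every βNrf2KO pool (12.5%). Between pools of the same number, 16 members (42.1%) were lower in βNrf2KO in all 3 pairs, against 17.9% of tested genes, and 0 were higher in all 3, against 19.1%. The median difference over members was -0.35 in pair 1, -0.077 in pair 2 and -0.53 in pair 4.

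**Figure D3:**
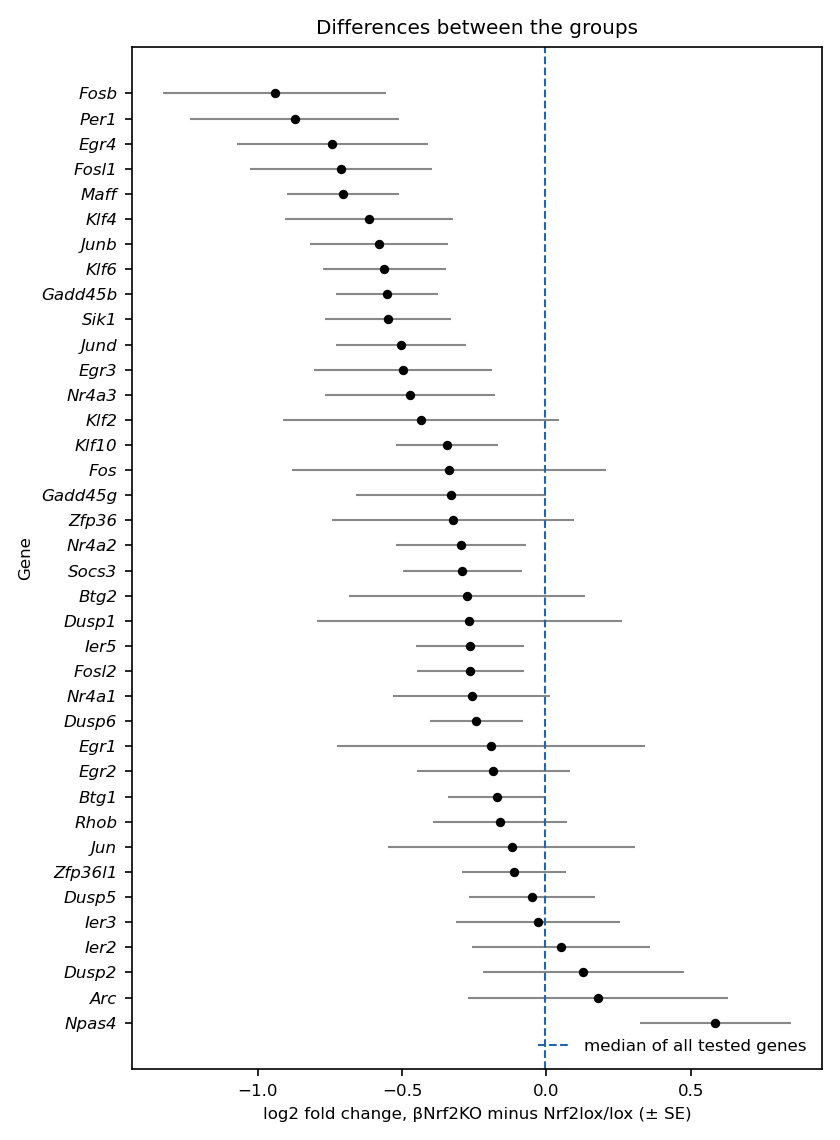
Log2 fold change (βNrf2KO minus Nrf2lox/lox) with its SE for each of the 38 genes, from the edgeR fit over 4 and 3 pools. The dashed line is the median of all tested genes (-0.0063), and 34 of the 38 genes lie below 0 although none passes the threshold.

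The FOS proteins, which bind DNA only as dimers with a JUN protein, had a negative fold change for 4 of 4 genes. Fosb had log2 CPM of 10.35, 11.31, 10.50 and 10.69 in the βNrf2KO pools, against 10.45, 12.41 and 11.63 in the control pools. Control pools 2 and 4 were above every βNrf2KO pool, and control pool 1 lay among them. Its log2 fold change was -0.94 ± 0.39 (SE, edgeR, unadjusted p = 0.0327, adjusted p = 0.571), and -0.40 without control pool 2. Fos had log2 CPM of 8.53, 10.40, 10.30 and 10.51 in the βNrf2KO pools, against 9.02, 10.48 and 11.14 in the control pools. Pool 1 was the lowest in each group, and the groups overlapped. The log2 fold change of Fos was -0.34 ± 0.54 (edgeR, adjusted p = 0.836), -0.068 without βNrf2KO pool 1 and 0.18 without control pool 4. Fosl1, an AP-1 factor of slower kinetics, differed by -0.71 ± 0.32 and Fosl2 by -0.26 ± 0.19 (edgeR, adjusted p = 0.571 and 0.639). Fosl1 was highest in control pool 1 (6.47 log2 CPM), a pool in which Fos was low. Its fold change was -0.25 without that pool and -0.097 with the acinar marker list as a covariate. With the same covariate Fosl2 was at -0.031 and Fosb at -0.92, while Fos became more negative, at -0.61.

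All 3 JUN genes had a negative fold change. Junb, which restrains Jun at many AP-1 sites, had log2 CPM of 7.45, 8.23, 7.96 and 7.80 in the βNrf2KO pools, against 7.85, 8.57 and 8.82 in the control pools. Control pools 2 and 4 were again above every βNrf2KO pool. Junb differed by -0.58 ± 0.24 (edgeR, unadjusted p = 0.0323, adjusted p = 0.571), and by -0.37 without control pool 4. Jund, the JUN protein of resting cells, differed by -0.50 ± 0.23 (edgeR, adjusted p = 0.571), and by -0.32 without control pool 2. Jun had log2 CPM of 7.80, 9.49, 9.35 and 9.32 in the βNrf2KO pools, against 8.35, 9.06 and 9.91 in the control pools. The groups overlapped over most of their range, and Jun differed by -0.12 ± 0.43 (edgeR, adjusted p = 0.929), with a positive sign without βNrf2KO pool 1 (0.12) or control pool 4 (0.38). Exons of Junb share 30.1% of their length with Prdx2 on the other strand, those of Jund 57.0% with Gm11175 and those of Jun 7.28% with Junos. As the strand setting of the counting was not given, reads in such stretches cannot be assigned.

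The EGR genes had negative fold changes for 4 of 4. Egr1 had log2 CPM of 9.11, 11.34, 11.17 and 11.32 in the βNrf2KO pools, against 9.93, 11.35 and 11.67 in the control pools. Again the pools of number 1 were the low ones in each group. The log2 fold change of -0.19 ± 0.53 (edgeR, adjusted p = 0.911) became 0.099 without βNrf2KO pool 1 and 0.15 without control pool 4. Egr4, expressed mostly in neurons, differed by -0.74 ± 0.33 (unadjusted p = 0.0455, edgeR adjusted p = 0.571), and by -0.42 without control pool 2. Egr3 differed by -0.50 ± 0.31 and Egr2, a factor of Schwann cell myelination, by -0.18 ± 0.27 (edgeR, adjusted p = 0.611 and 0.815). Egr3 had log2 CPM of 4.35, 5.17, 3.51 and 4.09 in the βNrf2KO pools, against 5.04, 4.85 and 4.80 in the control pools, and its range was wide in βNrf2KO and narrow in the controls.

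The NR4A orphan receptors, which act without a known ligand in hormone, metabolic and neuronal responses, had negative values for 3 of 3. Nr4a1 had log2 CPM of 7.95, 8.95, 8.30 and 8.68 in the βNrf2KO pools, against 8.32, 8.53 and 9.30 in the control pools, which overlapped. It differed by -0.26 ± 0.27 (edgeR, adjusted p = 0.743), and by 0.091 without control pool 4. Nr4a2 and Nr4a3 differed by -0.30 ± 0.22 and -0.47 ± 0.30 (edgeR, adjusted p = 0.654 and 0.612). Nr4a2 was at -0.011 without control pool 2, and Nr4a3 at -0.0094 with the acinar covariate.

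Krüppel-like factors had negative values for 4 of 4. Klf6, which responds to injury in many tissues, had log2 CPM of 6.39, 7.35, 6.99 and 6.93 in the βNrf2KO pools, against 7.29, 7.47 and 7.75 in the control pools. Only βNrf2KO pool 2 reached into the control range. Klf6 differed by -0.56 ± 0.21 (edgeR, unadjusted p = 0.0219, adjusted p = 0.571). Klf4, a pluripotency and epithelial factor, differed by -0.61 ± 0.29, and Klf10, first described as a gene induced by TGF-β, by -0.34 ± 0.18 (edgeR, adjusted p = 0.571 each). Klf4 was at -0.40 without control pool 4. Klf2, a flow-induced factor of endothelium, differed by -0.43 ± 0.48 (adjusted p = 0.759 by edgeR) and ranged over 2.54 log2 units between pools. It differed by -0.17 without βNrf2KO pool 1 and by -0.029 without control pool 4.

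The 3 IER genes, small nuclear or regulatory proteins named for their speed, were 2 negative and 1 positive. Ier2 had log2 CPM of 6.19, 7.45, 7.32 and 7.45 in the βNrf2KO pools, against 6.55, 7.08 and 7.58 in the control pools. The ranges overlapped, with pool 1 lowest in each group. Ier2 differed by 0.050 ± 0.31, Ier3 by -0.029 ± 0.28 and Ier5 by -0.26 ± 0.19 (edgeR, adjusted p = 0.962, 0.976 and 0.641). Ier3, an inhibitor of apoptosis, was highest in pool 1 within each group.

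Phosphatases that switch off MAP kinases had 3 of 4 negative values. Dusp1, which acts in the nucleus on p38, JNK and ERK, had log2 CPM of 5.99, 7.99, 7.95 and 8.16 in the βNrf2KO pools, against 7.05, 7.78 and 8.70 in the control pools. This was the widest range of the list, 2.71 log2 units between βNrf2KO pool 1 and control pool 4. Dusp1 differed by -0.27 ± 0.53, and by 0.018 without βNrf2KO pool 1. The ERK phosphatases Dusp5 and Dusp6, of the nucleus and the cytoplasm, differed by -0.049 ± 0.22 and -0.24 ± 0.16, and Dusp2 by 0.13 ± 0.35 (edgeR, adjusted p = 0.625 to 0.946 over the 4 genes).

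Genes of mRNA decay and growth arrest had 4 of 4 negative values. Zfp36 (tristetraprolin), which destroys AU-rich mRNAs, differed by -0.32 ± 0.42 and its paralogue Zfp36l1 by -0.11 ± 0.18. Exons of Zfp36l1 share 86.7% of their length with Gm26669 on the other strand, which had few reads of its own. The antiproliferative genes Btg1 and Btg2 differed by -0.17 ± 0.17 and -0.28 ± 0.41 (edgeR, adjusted p = 0.725 to 0.831 over the 4 genes). Btg2 and Zfp36 turned positive without control pool 4, at 0.26 and 0.0094.

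Both genes of neuronal activity had positive values. Npas4 (ENSMUSG00000045903, chromosome 19, 4984355 to 4989971, minus strand), a factor induced by calcium entry in neurons and in β-cells, had log2 CPM of 7.04, 7.84, 7.21 and 7.66 in the βNrf2KO pools, against 7.38, 6.34 and 6.76 in the control pools. Means were 7.44 ± 0.37 (SD, n = 4) in βNrf2KO and 6.83 ± 0.52 (SD, n = 3) in control pools. Npas4 differed by 0.59 ± 0.26 (edgeR, unadjusted p = 0.0449, adjusted p = 0.571), and by 0.38 without control pool 2. It was higher in βNrf2KO in pairs 2 and 4 and lower in pair 1. Arc, which regulates glutamate receptors at synapses, differed by 0.18 ± 0.45 (edgeR, adjusted p = 0.901), and by -0.21 without control pool 2, where it was lowest.

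The remaining 7 genes act in stress, the cytoskeleton and signalling feedback, and 7 of 7 were negative. Maff (ENSMUSG00000042622, chromosome 15, 79347541 to 79359072, plus strand) is a small MAF protein, and such proteins are the partners with which Nrf2 binds DNA. It had log2 CPM of 6.10, 6.01, 5.65 and 5.44 in the βNrf2KO pools, against 6.51, 6.76 and 6.28 in the control pools. No βNrf2KO pool reached a control pool. Maff differed by -0.70 ± 0.20 with the smallest unadjusted p of the list (edgeR, unadjusted p = 0.00374, adjusted p = 0.571). It differed by -0.57 to -0.83 when each pool was left out.

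Gadd45b (ENSMUSG00000015312, chromosome 10, 80930091 to 80932204, plus strand), which activates p38 and JNK kinases under stress, had log2 CPM of 4.37, 4.25, 4.46 and 4.14 in the βNrf2KO pools, against 4.66, 5.12 and 4.75 in the control pools. These were separate as well, and the difference was -0.55 ± 0.18 (edgeR, unadjusted p = 0.00894, adjusted p = 0.571). Sik1, a kinase that holds the CREB coactivators out of the nucleus, had log2 CPM of 7.45, 7.49, 6.90 and 6.88 in the βNrf2KO pools, against 7.51, 8.14 and 7.53 in the control pools. The groups were separate, with βNrf2KO pool 2 just under control pool 1. Sik1 differed by -0.55 ± 0.22 (edgeR, unadjusted p = 0.0271, adjusted p = 0.571), and by -0.31 without control pool 2.

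Per1, a clock gene that is also induced by cyclic AMP and glucocorticoids, had log2 CPM of 7.86, 8.41, 7.63 and 8.05 in the βNrf2KO pools, against 7.84, 9.67 and 8.56 in the control pools. Control pool 2 stood above the other 6 pools. Per1 differed by -0.87 ± 0.36 (edgeR, unadjusted p = 0.0352, adjusted p = 0.571), and by -0.23 without that pool. Socs3, an inhibitor of cytokine receptors, differed by -0.29 ± 0.21, Gadd45g by -0.33 ± 0.33 and the small GTPase Rhob by -0.16 ± 0.23 (edgeR, adjusted p = 0.641, 0.728 and 0.815).

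**Figure D4:**
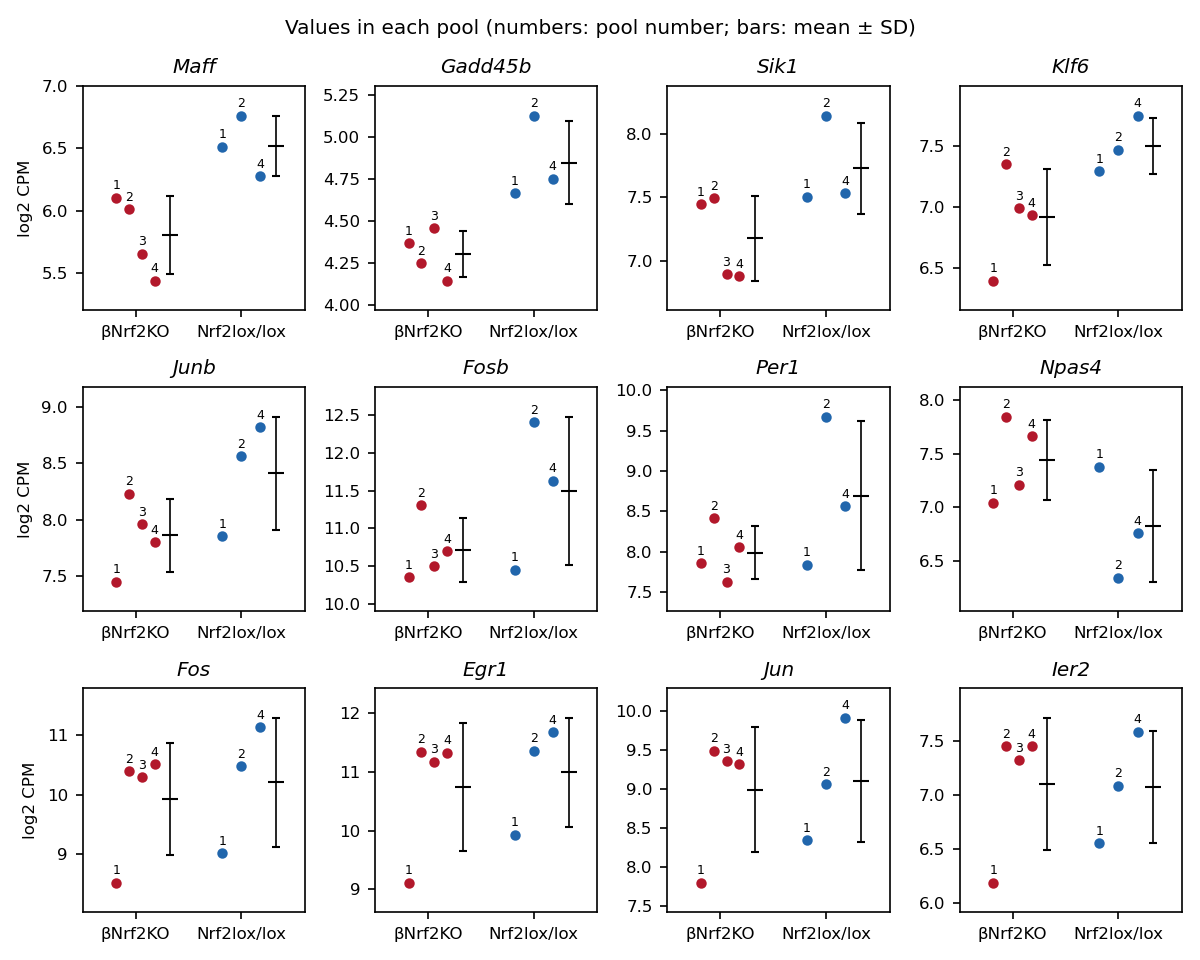
Log2 CPM of 12 immediate early genes in each pool, labelled by pool number, for βNrf2KO (red) and Nrf2lox/lox (blue), with mean and SD beside the points. Maff, Gadd45b and Sik1 do not overlap between groups, while Fos, Egr1, Jun and Ier2 overlap and are lowest in the pools of number 1.

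The 38 genes thus differed in which pools were high. A group of them followed Fos. Over the 7 pools, 9 of the other 37 members had a Pearson correlation of log2 CPM with Fos above 0.9, against 1.88% of all tested genes. They were Egr1 (0.99), Zfp36 (0.99), Rhob (0.98), Jun (0.97), Dusp1 (0.97), Btg2 (0.97), Klf2 (0.96), Ier2 (0.96) and Btg1 (0.92). These points share their libraries, and 7 pools of 2 groups make this a description. In all of these genes βNrf2KO pool 1 was lowest and control pool 4 highest, as in Fos. The genes were picked by their likeness to Fos, so this is not a separate result. Over 6 pools, without βNrf2KO pool 1, 8 of the 9 had a correlation above 0.9 (1.62% of all tested genes), with Btg1 at 0.85, and without control pool 4 all 9 had (2.19%). Maff (-0.16), Sik1 (-0.018), Gadd45b (0.17) and Npas4 (-0.12) did not follow Fos. Ier3 (-0.85), Gadd45g (-0.54), Fosl1 (-0.53), Nr4a3 (-0.53) and Fosl2 (-0.46) had the most negative values. Fosb (0.63) and Per1 (0.46) were highest in control pool 2.

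Over all 38 genes the highest value stood in control pool 2 or 4 for 31 (81.6%), against 39.2% of all tested genes. βNrf2KO pools held the highest value for 4 genes (10.5%), all in pool 2, against 46.5% of tested genes. They held the lowest for 33 (86.8%), against 48.1% of tested genes. Control pool 2 had the largest mitochondrial share (51.8%) and control pool 4 the smallest of the controls (14.6%). The part of mitochondrial RNA in these values was not tested beyond the scaling: without the mitochondrial genome in the library sizes the same number of members, 34, was negative, with a median of -0.29.

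**Figure D5:**
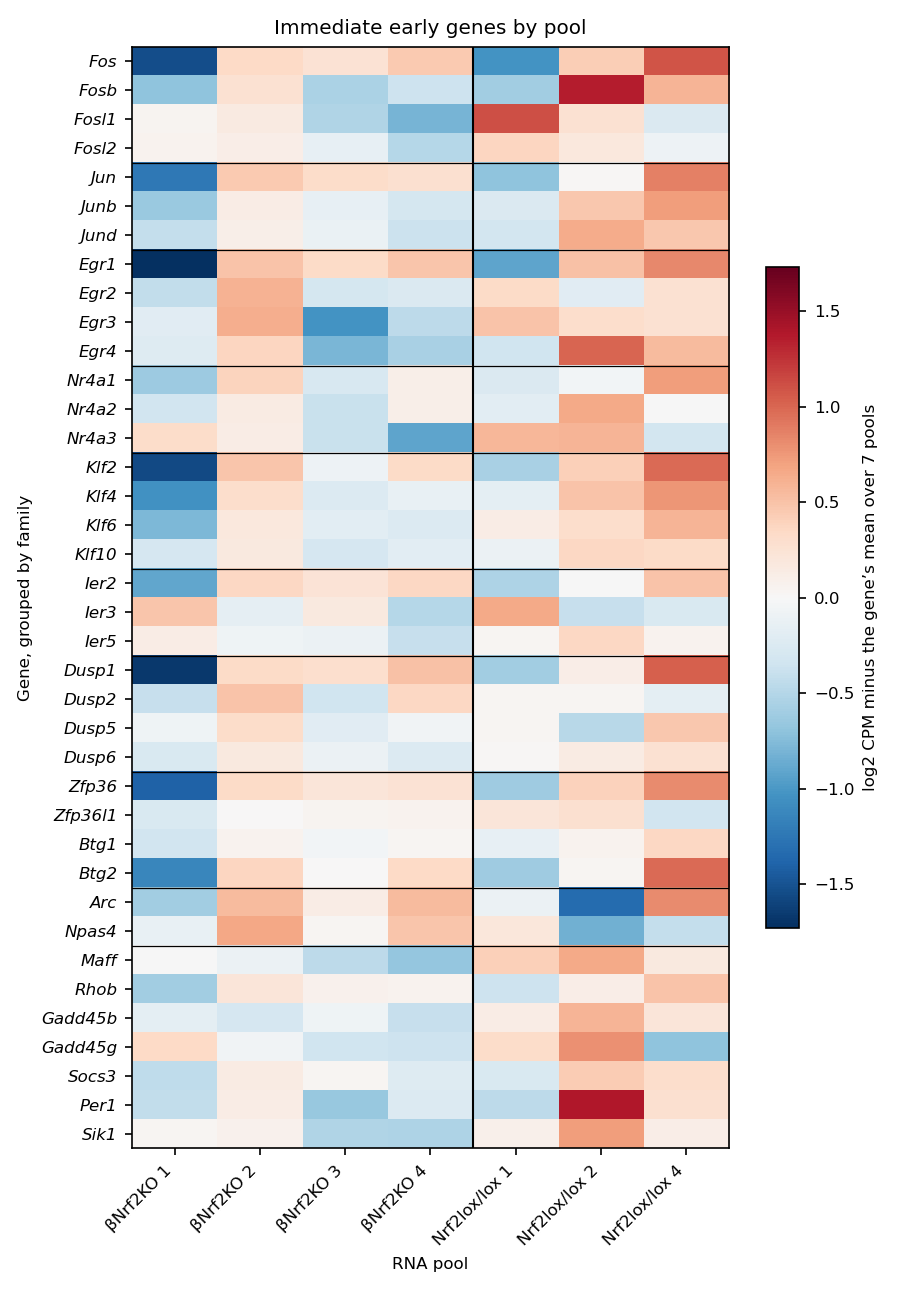
Log2 CPM of each gene minus its mean over the 7 pools (colour), with genes in rows grouped by family and pools in columns, βNrf2KO left of Nrf2lox/lox. Blue fills the column of βNrf2KO pool 1 for Fos, Jun, Egr1, Klf2, Dusp1, Zfp36 and Btg2, and red stands mainly in control pools 2 and 4.

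The rest of the pathway was read from lists of its parts, and no gene in them passed the threshold. Upstream, SRF and its cofactors were 3 positive and 4 negative (median -0.024), with Myocd, a cofactor of smooth muscle, at -0.88 ± 0.31 and Mrtfa, the actin-sensing cofactor, at -0.35 ± 0.21. Kinases of the ERK, p38 and JNK cascades were 10 positive and 18 negative (median -0.058). Among these the receptor Egfr was at 0.68 ± 0.27. CREB and its partners were 9 positive and 8 negative (median 0.023), with Creb1 at 0.61 ± 0.22 and the protein kinase A subunit Prkacb at 0.50 ± 0.23. These upstream lists had medians near that of all tested genes; their difference from the immediate early genes was not tested.

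Among other fast genes most values were negative. Of 47 further rapidly induced genes tested, 35 were negative, with a median of -0.31, 10 lower and 0 higher at unadjusted p under 0.05, against 5.23% and 3.23% of all tested genes. In this list Csrnp1, a nuclear protein induced by axin, was at -1.07 ± 0.29 and Ifrd1 at -0.60 ± 0.19. Other AP-1 family genes were negative for 6 of 7 tested (median -0.36), led by Mafa, a β-cell maturation factor, at -0.78 ± 0.22 and the stress factor Atf3 at -0.66 ± 0.29. Atf3 and Mafk stand in both lists. Other ERK feedback genes were negative for 12 of 16 (median -0.21), with the phosphatase Dusp16 at -0.61 ± 0.18 and Spry4, a Sprouty inhibitor, at -0.47 ± 0.21. Genes of AU-rich mRNA turnover were 9 positive and 8 negative (median 0.0084), with the RNA-binding proteins Tia1 at 0.59 ± 0.19 and Elavl3 at -0.93 ± 0.31. Genes of these lists given with a value had an edgeR adjusted p of 0.571 except Mrtfa (0.599).

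Heat shock genes are induced along with immediate early genes when tissue is dissociated. They were 8 positive and 7 negative (median 0.0081, 0 of 15 at unadjusted p under 0.05 by edgeR), with Hsp90aa1 at 0.39 ± 0.22 and Hspe1 at 0.60 ± 0.34 (edgeR, adjusted p = 0.586 and 0.590). The inducible chaperone Hspa1a had log2 CPM of 7.52, 8.77, 8.46 and 8.36 in the βNrf2KO pools, against 7.84, 8.33 and 8.89 in the control pools. Its cochaperone Dnajb1 had 7.54, 8.93, 8.64 and 8.99 in the βNrf2KO pools, against 7.85, 8.08 and 9.41 in the control pools. Both were lowest in βNrf2KO pool 1 and highest in control pool 4, as Fos was. This held for 5 of the 15 heat shock genes, with correlations with Fos from 0.81 (Dnajb4) to 0.94 (Hspa1a). Another 5 had a negative correlation with Fos, among them Hsf1 (-0.66) and Hspb1 (-0.33). Of all tested genes, 15.9% were lowest in βNrf2KO pool 1 and 12.8% highest in control pool 4. The shares of all tested genes with both, or with a negative correlation, were not computed. Hspa1a has a near-identical copy, Hspa1b, so their reads may be split.

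Marker lists of other cell types were uneven as well, with no marker past the threshold. The 12 fibroblast and pericyte markers were all negative (median -0.81), with Myh11 at -1.20 ± 0.28 and Col3a1 at -0.84 ± 0.30. Of these markers 7 were lower at unadjusted p under 0.05 (edgeR), against 5.23% of all tested genes. The 12 summed to 1042 to 1717 CPM in βNrf2KO pools and 1102 to 2895 CPM in control pools. Control pool 4, at 1102 CPM, lay within the βNrf2KO range, and control pools 1 and 2 stood at 2428 and 2895 CPM. Acinar markers were negative for 9 of 9 tested (median -0.96, with Cela1 at -1.38 ± 0.57 and Prss2 at -1.28 ± 0.71), summed to 56.3 to 218 CPM in βNrf2KO and 69.6 to 394 CPM in control pools, and had Amy2a5 at 0 in all pools. With the acinar list entered as a covariate, 6 members had an unadjusted p under 0.05 and the median was -0.33. Of all 19893 tested genes 876 passed that limit with the covariate, while 11 members and 1683 genes passed it without. Neuron and Schwann cell markers were negative for 8 of 9 (81.7 to 119.8 CPM in βNrf2KO pools and 97.7 to 159.2 CPM in control pools, with Prph at -1.09 ± 0.28 and Stmn2 at -1.03 ± 0.31). Macrophage and leukocyte markers were negative for 9 of 12 tested (48.5 to 88.2 CPM in βNrf2KO and 58.6 to 96.0 CPM in control pools, Csf1r -0.46 ± 0.21, Lyz2 -0.71 ± 0.41). The part of these cells in the values of the immediate early genes was not tested.

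Markers of β-cells were positive for 8 of 10 (median 0.37), with Mafa negative as above and Ins1 at -0.66 ± 0.31. Endothelial markers were positive for 5 of 9 (median 0.030, Pecam1 0.30 ± 0.16, Kdr 0.30 ± 0.17), ductal markers for 5 of 8 (median 0.36, Spp1 0.95 ± 0.23, Epcam 0.54 ± 0.22) and markers of the other endocrine cells for 5 of 7 (median 0.055, Sst -0.34 ± 0.22, Gcg 0.64 ± 0.54). Erythroid markers were positive for 2 of 7 (median -0.35, Hbb-bs -0.44 ± 0.27, Hba-a1 -0.39 ± 0.31). All 9 marker sums overlapped between the groups.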

How the data were processed

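Libraries of ribosome-depleted total RNA were sequenced by the authors, 1 for each of 7 pools of RNA from 5 animals, so p-values measure the spread between pools. The authors deposited whole-number counts for each gene, not normalized. The tools named in the submitters' processing notes are featureCounts (Subread 1.5.2), STAR 2.5.2b, Trimmomatic 0.36 and bcl2fastq 2.20; whether counting used the strand, and which annotation, is not given in the sources used here. A newer build stands in those notes, while exons in the deposited tables lie at GRCm38 positions, and these are printed. The Cre entry was left out of tests, and the combined table of the series was not used.

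Counts were tested with edgeR 4.0.16 in R 4.3.3 (TMM, filterByExpr by group, robust quasi-likelihood fit, two-sided), adjusted by Benjamini-Hochberg over 19893 genes at a threshold of 0.05. Each log2 fold change is that of βNrf2KO over control, with its SE. Log2 CPM used a prior count of 2. CPM per kilobase used the exon length in the files. Depth limits precision: a count of 0 allows 3 counts, or 0.0995 to 0.198 CPM by pool, counting error only. Alternatives were RLE, library sizes without the mitochondrial genome, other filters, DESeq2 1.42.0, limma-voom (limma 3.58.1), the pool number as a block, an acinar covariate, a threshold of 0.1 and leaving out each pool.

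With group means taken off, same-numbered pools had correlations over genes of 0.376, 0.229 and 0.323 (numbers 1, 2 and 4), each above 0.1, so the numbers were taken to pair the pools. Values printed are from the fit without the block unless the block is named. As βNrf2KO pool 3 has no control of its number, it adds nothing to the group difference in the fit with the block. That difference rests on 3 pairs. Control pool 4 also correlated with βNrf2KO pool 3 (0.241), above the value for number 2. The labels state no pairing, so the pairing is an assumption.

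The genes and lists were chosen with earlier results of these data known. Values in every pool were given for the 5 members with the highest level per length, the 8 with the smallest unadjusted p, and Fos, Jun, Egr1, Nr4a1 and Ier2; of each other list the 2 genes with the smallest p were named, except 1 gene that is not reported here. Further genes (Egr3, Dusp1, Ins2, Iapp, Hspa1a, Dnajb1 and other heat shock genes) were named after their values were seen. The search for the AU-rich nonamer was added then as well. Listed genes known under newer symbols (4) were matched through RefSeq synonyms. Promoters are from RefSeq, 3′ UTRs from GENCODE M21.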

Additional observations from a re-analysis of the deposited data

Results flagged for a closer look

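In 8 of 38 immediate early genes 1 βNrf2KO pool stood far from the other 3, measured as its gap to the nearest pool divided by the range of the 4 pools, above the 95% critical value of Dixon's test. Chance flags about 1 in 20 separate groups. These genes share the same 4 libraries, so their flags are not separate trials and cannot be set against that rate. The share of all tested genes flagged in this way was not computed. In 7 of the 8 genes the pool was βNrf2KO pool 1, on the low side. The ratios were 0.927 for Zfp36, 0.923 for Egr1, 0.902 for Dusp1, 0.899 for Jun, 0.899 for Ier2, 0.892 for Fos and 0.836 for Zfp36l1. For Egr2 it was βNrf2KO pool 2 on the high side (0.833). Among these genes Zfp36 was read at 7.38 log2 CPM in βNrf2KO pool 1 and at 9.12, 8.99 and 9.03 in βNrf2KO pools 2, 3 and 4. Its control pools were at 8.17, 9.19 and 9.60, the lowest being control pool 1. The control group, with 3 pools, was not examined in this way.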

How the results depend on the processing

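RLE normalization, library sizes without the mitochondrial genome, both other filters and DESeq2 kept the sign of all 38 log2 fold changes, and a threshold of 0.1 added no call. The median over members was negative in every alternative, from -0.45 to -0.22 with pools left out. Genes past the threshold numbered 1 by DESeq2, 14 with the pool number as a block and 0 to 1 when each pool was left out (1 without control pool 4), and the block changed no call of a member. Members at unadjusted p under 0.05 numbered 5 by limma-voom, 6 with the acinar covariate, 14 with the block and 3 to 13 with pools left out. All genes at that limit numbered 1237 by limma-voom, 876 with the acinar covariate and 2415 with the block, against 1683 of 19893 in the main fit. With pools left out they made up 2.3% to 17% of all genes. Positive members numbered 7 by limma-voom and 3 to 13 with pools left out, and members without overlap 3 to 15. Of all genes, 9.02% to 25.6% had no overlap with pools left out, and 24% where 15 members had none. Signs turned by limma-voom for Fos (0.018), Jun (0.11) and Egr1 (0.084). The block turned Ier2 (-0.046) and Dusp5 (0.049). The acinar covariate turned Ier2 (-0.14), Ier3 (0.29), Zfp36l1 (0.033) and Gadd45g (0.098). Negative values moved either way with it, as for Fosl1 (-0.097) on the one side and Fos (-0.61) and Egr1 (-0.42) on the other. Leaving out each pool gave -0.73 to 0.18 for Fos, -0.42 to 0.38 for Jun, -0.56 to 0.15 for Egr1, -0.44 to 0.091 for Nr4a1, -0.17 to 0.34 for Ier2, -0.22 to 0.38 for Ier3, -0.58 to 0.27 for Dusp1, -0.047 to 0.25 for Dusp2, -0.26 to 0.21 for Dusp5, -0.63 to 0.0094 for Zfp36, -0.58 to 0.26 for Btg2, -0.21 to 0.81 for Arc, -0.35 to 0.064 for Rhob and -0.66 to 0.035 for Gadd45g. The cause was not tested. Chosen after seeing the data, the median SD of members over βNrf2KO pools was 0.24 without pool 1, and members with a correlation with Fos above 0.9 numbered 8 without βNrf2KO pool 1 and 9 without control pool 4. Counts of members in the 1000 highest genes (28) and of promoter motifs were within 1.5 times under their alternatives.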

Other observations

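The genes outside the list whose log2 CPM over the 7 pools was most like that of Fos were Prickle1 (Pearson r = 0.992), Dnah11 (0.989), Gm11830 (0.986), Ints9 (0.986) and Cd300lg (0.985). Gm11830 had very few reads, with log2 CPM from -2.33 in βNrf2KO pool 1 to 0.03 in control pool 4. The planar polarity gene Prickle1 had log2 CPM of 4.93, 5.41, 5.39 and 5.40 in the βNrf2KO pools, against 5.08, 5.36 and 5.55 in the control pools. Cd300lg, a receptor of capillary endothelium, had log2 CPM of 3.90, 5.12, 5.07 and 5.28 in the βNrf2KO pools, against 4.21, 5.03 and 5.37 in the control pools. With 7 pools and 19893 genes such likeness is a description only.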
